A study of Mus musculus with 4 samples.

Results

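The endothelial, phagocyte, T, mural and epithelial cells of mouse subcutaneous fat were compared between mice without Cth and mice with it, both on a control diet. Cells were assigned by counts of unique molecular identifiers (UMIs, 1 per captured RNA molecule) of a few marker genes in each cell, with a threshold called a gate: Cdh5, Pecam1 and Cldn5 together at 3 or more for endothelial cells, Csf1r, Cd68 and Lyz2 at 4 or more for phagocytes, Cd3d, Cd3e and Cd3g at 2 or more for T cells, Rgs5 and Notch3 at 4 or more for mural cells, and Krt8 and Krt18 at 5 or more for epithelial cells. Of the 22750 cells of the series that passed the quality limits, 4752 were members: 2713 of the 6425 cells of the Cth+/+ library and 2039 of the 5812 cells of the Cth-/- library. The fibroblast-like progenitor gate (Dcn at 0.2% or more of a cell's UMIs) was left aside, although 157 and 162 members also passed it. The study profiled stromal vascular cells, the cells freed when fat tissue is digested, of female Cth+/+ and Cth-/- mice fed a control diet or a diet without cystine for 4 days. Lymph nodes had been removed and the depots of a group pooled. The sample labels name the diet cysteine free and the protocol cystine free, and the number and age of the animals, the strain and the kind of Cth allele are not given in the sources used here. The cystine-free libraries of both genotypes (6383 and 4130 cells) are shown beside the control libraries as levels.

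Cth encodes cystathionine gamma-lyase, which cleaves cystathionine to cysteine in the last step of transsulfuration, the route by which cells make cysteine from methionine. Cysteine is needed for protein and for glutathione, the main soluble thiol of cells, and is abundant in metallothioneins, small proteins that bind zinc and copper. The cells other than progenitors in this tissue line its vessels, wrap them, patrol it as macrophages and T cells, or, in female subcutaneous depots, which hold the mammary glands, form milk ducts.

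Each group was 1 library, so no difference between genotypes could be tested, and every interval is a 95% interval of counting error only. Cth itself gave 8 and 9 UMIs in the Cth+/+ control and cystine-free libraries and 0 in both Cth-/- libraries, where 8.70 (control diet) and 4.87 (cystine-free diet) UMIs would stand at the rate of the Cth+/+ control library. On the control diet the median cell had 2744 UMIs in Cth+/+ and 3567.5 in Cth-/-. Within gates they were 2479 and 2413.5 in the endothelial, 2638 and 2942.5 in the phagocyte, 2502 and 2069 in the T, and 10241 and 9939 in the epithelial gate. Of the kept barcodes, 42 were shared by the control libraries. In 4 gates all 10 check markers, genes that did not set the gate, were highest in their own gate in both control libraries. The mural label went against the data: 324 of 428 and 111 of 156 of its cells also passed the endothelial gate, and in the Cth-/- library 7 of 10 mural markers were highest there, so it is called the Rgs5 Notch3 gate here. Of all kept cells, 8.06% (Cth+/+) and 5.33% (Cth-/-) passed 2 or more gates, so values are also given for cells that passed exactly 1.

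On the control diet Cth-/- fat gave a smaller share of endothelial and T cells and a larger share of phagocytes. Endothelial cells were 20.2% of kept cells in Cth+/+ (19.2 to 21.2) and 9.36% in Cth-/- (8.62 to 10.1), a difference of -10.8 percentage points (-12.0 to -9.55). Phagocytes were 14.2% and 20.3% (a difference of 6.13, 4.78 to 7.48). T cells were 4.19% and 1.98% (-2.21, -2.83 to -1.59). The Rgs5 Notch3 gate held 6.66% and 2.68% (-3.98, -4.73 to -3.23), and the epithelial gate 3.04% and 3.49% (0.458, -0.183 to 1.11), an interval that includes 0. On the cystine-free diet the Cth+/+ and Cth-/- libraries held 19.9% and 25.1% endothelial cells and 3.01% and 5.71% T cells, so the Cth-/- control library was the lowest of the 4 for both. Phagocytes were higher in both Cth-/- libraries (16.5% and 19.2% on the cystine-free diet). The shares are of 1 total, and the progenitor gate held 47.2% and 57.3% of the control libraries. When each cell was thinned to 1000 UMIs, so that depth was equal, which left 5820 Cth+/+ and 5381 Cth-/- cells deep enough, endothelial cells were 14.6% and 6.30%, phagocytes 10.7% and 14.5%, and T cells 2.24% and 1.16%. Fewer cells of a type in the tissue and fewer recovered from it cannot be told apart here.

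**Figure D1:**
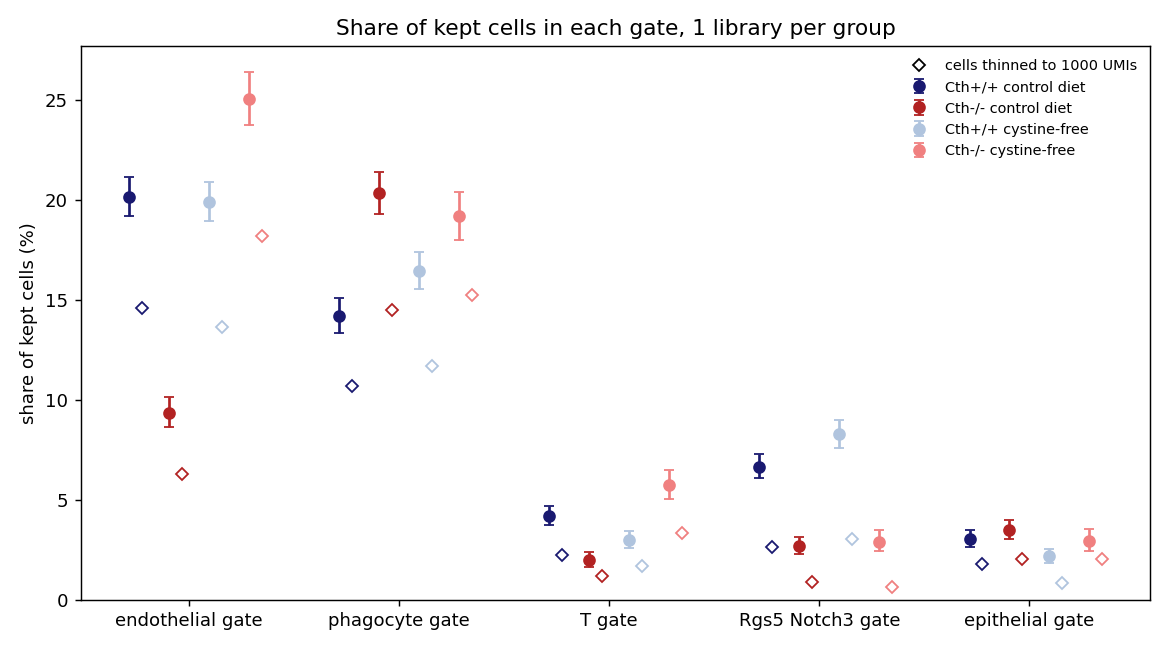
Share of kept cells (%) in each of the 5 gates in the 4 libraries. Filled circles are all kept cells with 95% Clopper-Pearson intervals, and open diamonds are shares of the cells with at least 1000 UMIs, each thinned to that number. The Cth-/- control library (dark red) has the lowest endothelial share, 9.36%, against 20.2% in the Cth+/+ control library (dark blue).

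Mid1, a ubiquitin ligase that binds microtubules, was higher in the Cth-/- control library in all 5 gates. In phagocytes it stood at 44.9 UMIs per 1000000 UMIs of the gate (CPM) in Cth+/+ and 119 in Cth-/- on the control diet, and at 47.2 and 24.2 on the cystine-free diet. With that value the Cth-/- control library stood alone above the other 3. On the log2 scale, with 1 CPM added to each value, the control diet difference was 1.39 (1.13 to 1.70), and 12.2% and 29.8% of phagocytes had at least 1 UMI. In endothelial cells Mid1 was 22.3 and 56.4 CPM (1.30, 0.90 to 1.77) and 18.3 and 15.9 on the cystine-free diet. Epithelial cells had 29.2 and 63.6 CPM (1.10, 0.74 to 1.51) and 31.4 and 45.2. In the T gate the values rested on 12 and 18 UMIs, 15.9 and 59.8 CPM, and in the Rgs5 Notch3 gate they were 20.8 and 65.7 CPM. The Cth-/- control library was the highest of the 4 in each of these gates. It was so in the progenitor gate too, with 31.6 and 70.9 CPM on the control diet and 28.9 and 32.9 on the cystine-free diet. In cells that passed exactly 1 gate the log2 difference was 1.38 in phagocytes, 1.09 in endothelial and 1.10 in epithelial cells. Mid1 lies on mouse chromosome X, at positions 169685199 to 170005736 of mm10.

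The metallothionein genes Mt1 and Mt2, whose proteins bind zinc and copper through cysteine residues, were about 2-fold higher in endothelial cells of the Cth-/- control library. The stretches of mm10 just before their RefSeq starts are shown because metal response elements, the short motif through which the zinc-sensing factor Mtf1 acts, are known in both promoters. Capitals mark its core TGCACNC or TGCGCNC on either strand. Mt1 is chr8:94178839-94179088 and Mt2 chr8:94172368-94172617, both on the plus strand, read 5' to 3'.
Mt1: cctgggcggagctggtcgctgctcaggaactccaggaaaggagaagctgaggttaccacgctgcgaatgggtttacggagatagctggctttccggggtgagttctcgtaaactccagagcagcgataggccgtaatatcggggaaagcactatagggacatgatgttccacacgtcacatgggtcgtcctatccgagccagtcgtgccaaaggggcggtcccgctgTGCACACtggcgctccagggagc
Mt2: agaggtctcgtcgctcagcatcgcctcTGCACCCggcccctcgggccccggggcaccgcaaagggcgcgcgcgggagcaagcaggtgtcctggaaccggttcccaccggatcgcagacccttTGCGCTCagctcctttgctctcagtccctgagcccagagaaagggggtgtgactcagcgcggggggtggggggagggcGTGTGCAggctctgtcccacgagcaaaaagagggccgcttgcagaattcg
The core occurred 1 time before the Mt1 start and 3 times before the Mt2 start, whereas 21.4% of 32851 RefSeq promoters of the same 250 bases held at least 1 and 1.26% at least 3. With the first 50 bases after the start included, Mt1 held 3 and Mt2 4, and 1.97% of promoters held at least 3. GENCODE places other starts up to 152 bases (Mt1) and 242 bases (Mt2) after the RefSeq start, so the window can miss bases close to those. A match is a string of letters and no measure of binding.

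In endothelial cells Mt1 was 1905 CPM in Cth+/+ and 3964 in Cth-/- on the control diet and 1388 and 3254 on the cystine-free diet, so both Cth-/- libraries lay above both Cth+/+ libraries. The log2 difference on the control diet was 1.06 (1.01 to 1.11). Mt2 was 969.8 and 1986 CPM on the control diet and 556 and 1408 on the cystine-free diet (1.03, 0.97 to 1.10 on the control diet), with the same order of libraries. With all cells of a gate the differences were smaller in the other gates. For Mt1 they were 0.20 in phagocytes (3839.7 and 4405 CPM), 0.35 in T cells, 0.60 in the Rgs5 Notch3 gate and 0.40 in epithelial cells. For Mt2 they were 0.40, 0.35, 0.83 and 0.60 in the same order. For Mt2 the Rgs5 Notch3 difference turned to -0.35 in cells of exactly 1 gate, and T cells of exactly 1 gate had 0.98 (Mt1) and 1.39 (Mt2). These sizes were not compared by a test. In epithelial cells on the cystine-free diet Mt2 was 1314 in Cth+/+ and 1318 in Cth-/-, both above the control libraries. Endothelial cells in exactly 1 gate had Mt1 at 1468 and 3267 CPM (1.15) and Mt2 at 811 and 1613 (0.99). Glucocorticoids also induce both genes. Mt1 and Mt2 belong to the list of glucocorticoid response genes too, of which 4 of 11 measured members were at least 1.5-fold higher in endothelial cells, against 4.12% of all genes there. The 4 were Mt1, Mt2, Per1 (31.0 and 55.8 CPM), a clock gene, and Errfi1 (113 and 197), a feedback inhibitor of the EGF receptor. Sgk1, a kinase, stood at 597 and 813 CPM (0.44), and Tsc22d3, a classical target of the hormone, at 55.5 and 58.3 (0.07).

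**Figure D2:**
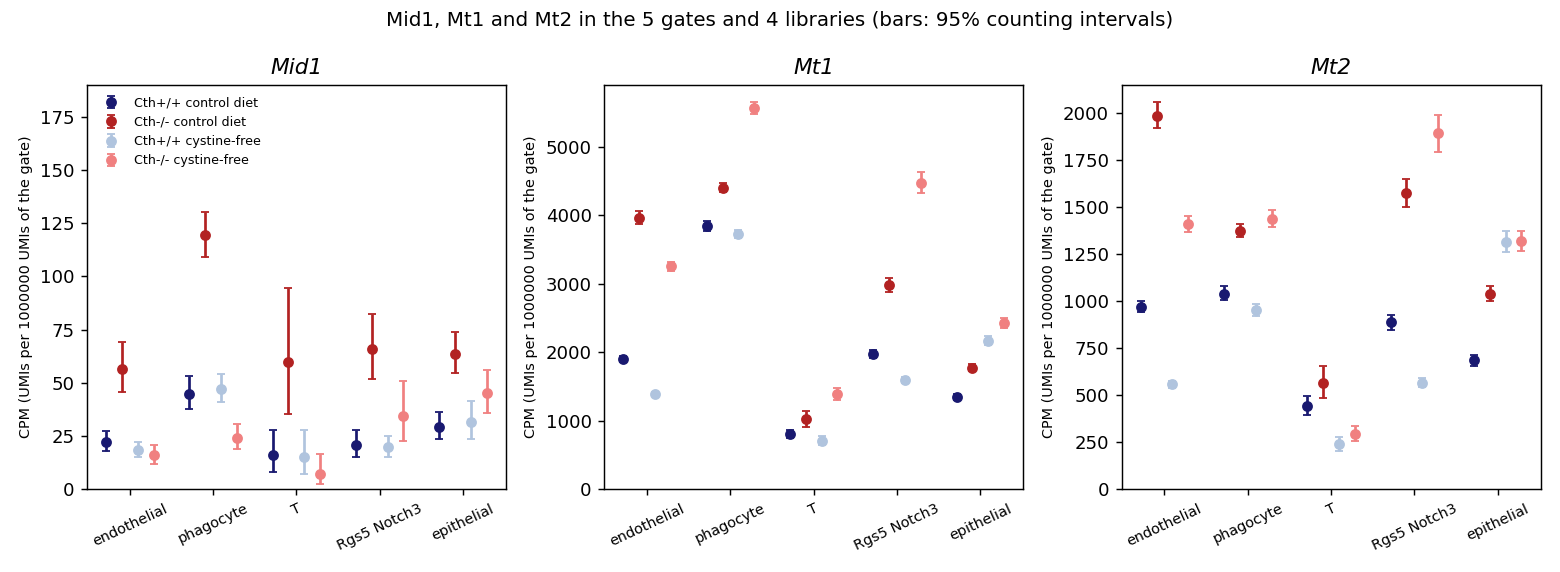
Mid1, Mt1 and Mt2 in CPM (UMIs per 1000000 UMIs of the gate) in the 5 gates and 4 libraries. Points are library values and bars 95% Poisson intervals. Mid1 is highest in the Cth-/- control library (dark red) in each gate, and Mt1 and Mt2 in endothelial cells are higher in both Cth-/- libraries than in both Cth+/+ libraries.

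A gene counted as measured in a gate with at least 50 CPM and 30 UMIs in the library where it was higher. In endothelial cells 3206 genes were measured, of which 4.12% were at least 1.5-fold higher and 1.28% at least 1.5-fold lower in Cth-/-. In phagocytes the shares were 1.24% and 0.694% of 2738 genes, in T cells 15% and 9.37% of 1740, in the Rgs5 Notch3 gate 7.33% and 11.3% of 3178, and in epithelial cells 2.85% and 1.34% of 2530. The shares at least 2-fold higher and lower were 0.936% and 0.218% in endothelial cells, 0.365% and 0.146% in phagocytes, 5.8% and 3.45% in T cells, 2.52% and 2.23% in the Rgs5 Notch3 gate and 1.03% and 0.514% in epithelial cells. With each cell given equal weight, by a mean over cells, the split of genes at least 1.5-fold higher and lower went from 233 and 358 to 231 and 216 in the Rgs5 Notch3 gate and from 72 and 34 to 112 and 118 in epithelial cells. With ratios centred on the median gene it was 256 and 295 in the Rgs5 Notch3 gate. Totals per gate ranged from 300824 UMIs (T cells, Cth-/-) to 4213155 (phagocytes, Cth-/-), and counting error was widest in T cells. No gene with a single match by symbol was measured and at least 1.5-fold apart in the same direction in all 5 gates. Gene lists are described below by how many measured members were at least 1.5-fold apart and by their median log2 difference. The median over all measured genes lay between -0.05 and 0.01 in the 5 gates.

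**Figure D3:**
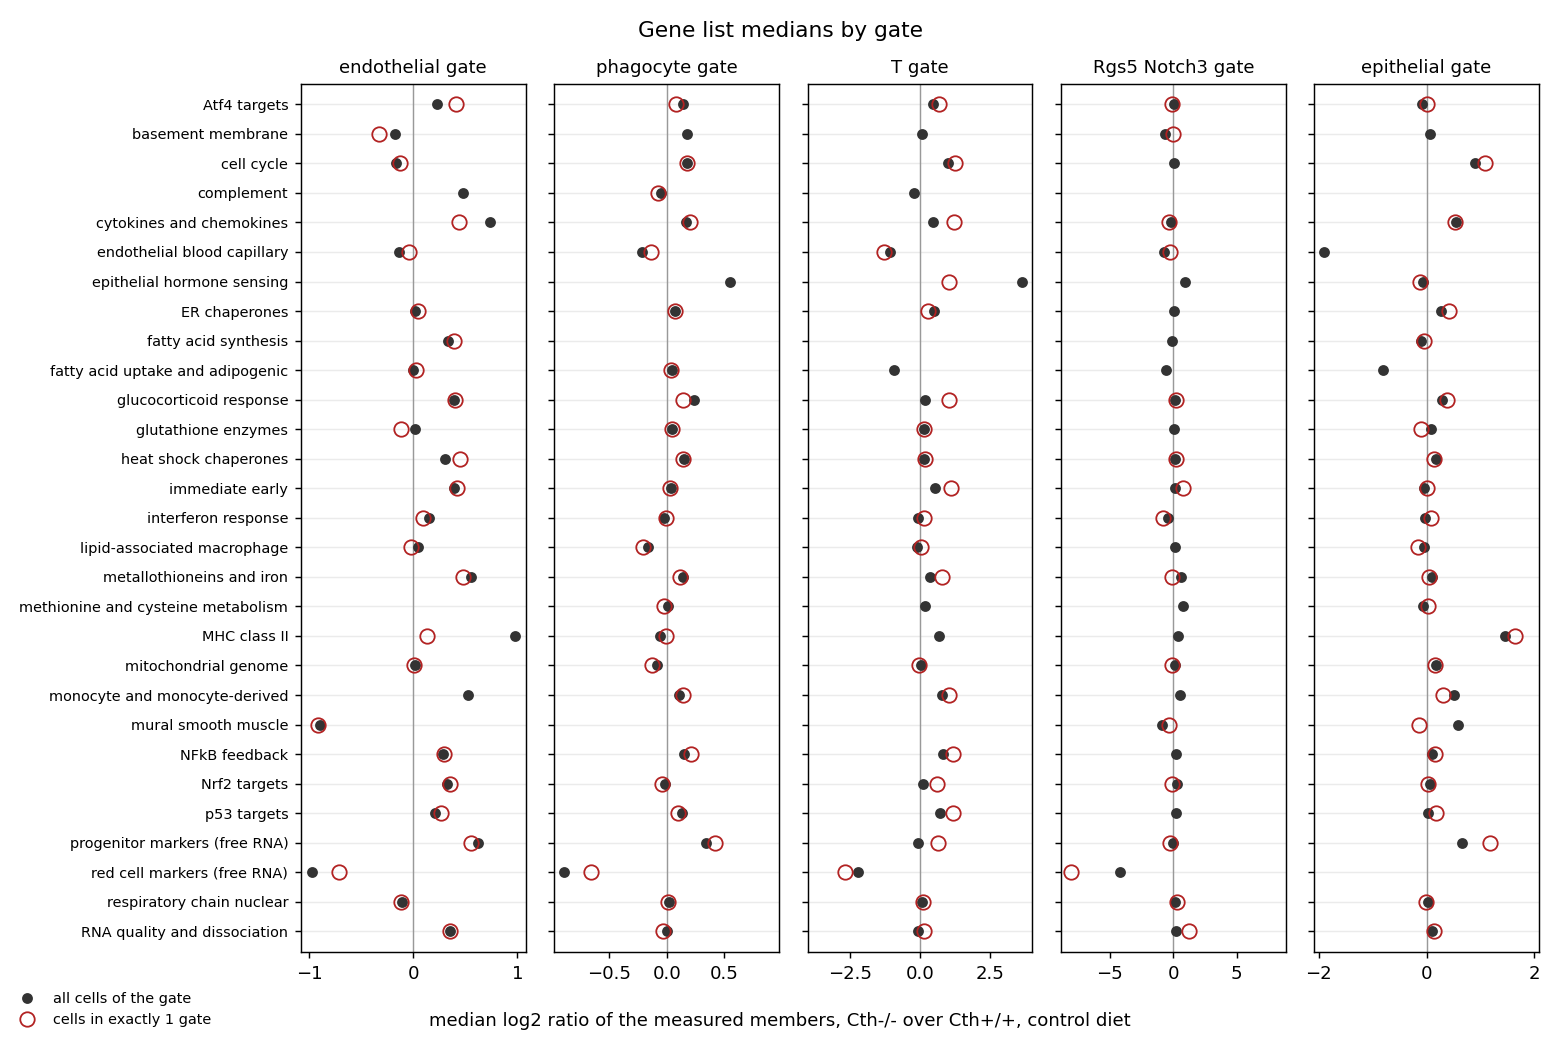
Median log2 ratio of the measured members of each gene list, Cth-/- over Cth+/+ on the control diet, for lists with a value in at least 3 of the 5 gates. Filled points are all cells of a gate and open red circles cells that passed exactly 1 gate. Each panel has its own range on the x axis. The MHC class II median is 0.98 in endothelial cells but 0.13 in those of exactly 1 gate, and 1.45 and 1.64 in epithelial cells.

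Most measured vessel genes of endothelial cells lay within 1.5-fold. Of 12 measured blood capillary genes 0 were at least 1.5-fold apart (median -0.14), and the same held for 5 arterial genes (median 0.08). Fabp4, a fatty acid carrier of capillaries in fat, stood at 36382 and 32508 CPM, and Cd36, which takes up fatty acids, at 4112 and 3779. The capillary gene that was most apart was Gpihbp1, which carries lipoprotein lipase to the vessel lumen, with 2125 and 1510.3 CPM on the control diet and 2477 and 2321 on the cystine-free diet (-0.49, -0.56 to -0.43 on the control diet). Of the 4 values the lowest was that of Cth-/- on the control diet. After thinning to 1000 UMIs, 79.6% (77.2 to 81.9) and 70.7% (66.4 to 74.7) of endothelial cells had a Gpihbp1 UMI, against 2.40% (Cth+/+) and 0 of 107 (Cth-/-, which allows up to 2.80%, or 3 cells of that total) of T cells, which should lack it. Thinning left out 128 and 56 shallower endothelial cells, and unthinned shares were 91.4% and 86.4%. Among venous and adhesion genes 2 of 8 were at least 1.5-fold higher, against 4.12% of all genes there. They were Vcam1, to which leukocytes bind (46.8 and 80.6 CPM, 0.77, 0.45 to 1.11), and Ackr3, a scavenger of chemokines (45.2 and 75.0 CPM, 0.72, 0.39 to 1.07). Basement membrane genes had a median of -0.18, with 0 of 12 past 1.5-fold, and Col4a1, a chain of its network collagen, was 968 and 759 CPM. Cells with at least 2 UMIs of the lymphatic genes Prox1, Mmrn1 and Reln numbered 15 and 6, which is 1.16% and 1.10% of the gate. Of the lymphatic list 3 of 5 measured members were higher, Lyve1, Fgl2 and Thy1, none of which is limited to lymphatic cells. Lyve1, a hyaluronan receptor that resident macrophages carry as well, was 22.3 and 54.5 CPM (1.25, 0.85 to 1.72).

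Of 21 immediate early genes, which cells switch on within minutes of a stimulus, 7 were at least 1.5-fold higher in endothelial cells of the Cth-/- control library, against 4.12% of all genes there, and 0 were lower (median 0.39). Egr3 was 119 and 259 CPM on the control diet and 66.9 and 242 on the cystine-free diet (1.11, 0.93 to 1.31 on the control diet). Both Cth-/- libraries lay above both Cth+/+ libraries for this transcription factor. Klf4, a factor induced by flow, showed the same order, with 775 and 1199 and then 586 and 1316 CPM (0.63, 0.55 to 0.71). Btg2, an inhibitor of proliferation, was 947 and 1474 CPM (0.64), and Cdkn1a, which encodes the cell cycle inhibitor p21, 713 and 1294 (0.86). Cdkn1a was 544 and 2091 on the cystine-free diet. Tissue digestion induces this group as well. The list of RNA quality and dissociation genes had a median of 0.36 in these cells, and 2 of 6 were higher, Hspa1a and Hspa1b. The part of digestion in the result was not tested. In cells of exactly 1 gate 4 of 21 immediate early genes were past 1.5-fold (median 0.42). Among phagocytes 0 of 21 were past 1.5-fold (median 0.04). Epithelial cells gave 0 of 17 as well (median -0.05).

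Cytokine and chemokine genes were higher in the endothelial gate, with 8 of 14 members at least 1.5-fold higher and 0 lower (median 0.73). Over all genes of the gate 4.12% were higher and 1.28% lower. Ccl2, which attracts monocytes, was 99.7 and 314 CPM on the control diet and 112 and 134 on the cystine-free diet (1.64, 1.46 to 1.84 on the control diet). Ccl7, a related chemokine, was 111 and 346, then 118 and 100.02 CPM (1.63, 1.46 to 1.82). Both were highest in the Cth-/- control library. Cxcl1 and Cxcl2, which attract neutrophils, were 184 and 333, and 66.1 and 157 CPM (0.86 and 1.23), while Il6 was 186 and 209 (0.17). Phagocytes express Ccl2 far more, with 2192 and 2425 CPM. Summed over the list, endothelial cells had 2742 and 3639 CPM, phagocytes 14489 and 15171, and the progenitor gate 4649 and 6204. Cells that passed both the endothelial and the progenitor gate were 65 of 1295 and 44 of 544. Cells that passed both the endothelial and the phagocyte gate were 13 of 1295 and 18 of 544, and the resident macrophage list had a median of 1.00 in endothelial cells (3 of 5 measured members higher). In endothelial cells of exactly 1 gate Ccl2 was 57.3 and 155 CPM (1.42) and Ccl7 94.8 and 179 (0.91), with 5 of 10 members higher and 1 lower (median 0.44). Of all 3171 genes measured in those cells 126 were higher and 54 lower. With cells removed that Scrublet called doublets, the median of the list was 0.14 and 3 of 11 members were higher, against 89 of 3184 genes. MHC class II genes, which present antigen on macrophages and dendritic cells, had a median of 0.98 (4 of 4) in the gate, 0.13 in cells of exactly 1 gate and 0.09 without doublets.

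Genes of other cells of the tissue lay among those most apart in the endothelial gate. Of 13 genes at least 2-fold higher (0.936% of all genes passed that fold) that passed the limit on free RNA, the highest 4 were adipocyte genes: Car3, a carbonic anhydrase, Adig, which promotes fat cell differentiation, Cfd, the protease adipsin, and Adipoq, the hormone adiponectin. Car3 was 178 and 554 CPM on the control diet and 94.5 and 539 on the cystine-free diet (1.64 on the control diet), and Cfd 265 and 699.7, then 65.7 and 1420.1 (1.40, 1.28 to 1.52). Adig was 19.9 and 58.9 (1.52) and Adipoq 19.9 and 51.4 CPM (1.32). No gate held adipocytes, so the limit on free RNA could not act on their genes. The summed level of 10 adipocyte markers was 692 and 1657 CPM in endothelial cells, 542 and 1128 in the Rgs5 Notch3 gate, 54.5 and 104 in phagocytes, 84.8 and 119.7 in T cells and 55.4 and 58.8 in epithelial cells. RNA set free by adipocytes and expression in the endothelial cells cannot be told apart here. Progenitor markers were higher too, at 3316 and 5092 CPM (7 of 11 members), and the 4 measured haemoglobin genes of red cells were lower, with 3932 and 1944 CPM summed over the red cell list. Smooth muscle genes were lower in 5 of 6 members (median -0.90). Of all genes there 4.12% were at least 1.5-fold higher and 1.28% lower. Acta2, smooth muscle actin, was 74.2 and 35.9 CPM and Myl9, a myosin light chain, 117 and 62.0. In cells of exactly 1 gate Acta2 was 32.6 and 9.28, and 2 of 3 measured smooth muscle genes were at least 1.5-fold lower, against 54 of 3171 genes.

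Ifi27l2a, induced by interferon, was 279 and 622 CPM in endothelial cells on the control diet and 167 and 496 on the cystine-free diet (1.15, 1.03 to 1.28 on the control diet). Both Cth-/- libraries were higher, although 1 of 14 genes of the interferon list was past 1.5-fold (median 0.15). Plaur, the urokinase receptor, was 36.8 and 82.4 CPM (1.14, 0.82 to 1.51). Ccnd1, the cyclin that starts the cell cycle, was 146 and 62.6 on the control diet and 282 and 33.8 on the cystine-free diet (-1.21, -1.54 to -0.92), lower in both Cth-/- libraries. Hist1h2ap, a histone gene made during DNA replication, was 66.3 and 15.5 CPM (-2.03, -2.75 to -1.50) and 271 and 81.1. Its direction on the control diet was the opposite of that in phagocytes, T cells and epithelial cells. In a pair of named genes 1 cell held most UMIs of the higher library. Mgp, an inhibitor of calcification, was 86.2 and 205 CPM with 170 of 331 Cth-/- UMIs in 1 cell (log2 difference 1.24, and 0.30 without the top cell of each library). Nts, neurotensin, was 79.8 and 3.10 with 289 of 332 Cth+/+ UMIs in 1 cell (-4.30, and still -2.34 without the top cell of each library).

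Phagocytes had the smallest share of genes apart of the 5 gates, and few of their subtype genes were past 1.5-fold. Of 14 genes of resident macrophages 1 was at least 1.5-fold lower and 0 higher (median -0.15), against 0.694% and 1.24% of all genes. Mrc1, the mannose receptor of resident macrophages, was 1269.8 and 1323 CPM, and Timd4, a receptor for dying cells, 55.9 and 35.8 (-0.63, -0.97 to -0.31). Among 10 monocyte genes 1 was past 1.5-fold, Chil3, a chitinase-like lectin, at 44.2 and 80.2 CPM (0.85, 0.56 to 1.17). Lyz1, a lysozyme, was 329 and 491 (0.58, 0.47 to 0.69). Dendritic, lipid-associated macrophage, complement and MHC class II lists had 0 of 3, 9, 10 and 6 measured members past 1.5-fold, with medians of -0.14, -0.17, -0.05 and -0.06. Within them Apoe, a lipid carrier, stood at 4815 and 3285 CPM (-0.55, -0.59 to -0.52), with 3401 and 7711 on the cystine-free diet, and C1qb, a chain of the first complement component, at 1287 and 951 (-0.44). After thinning to 1000 UMIs, 59.0% (55.6 to 62.3) and 61.8% (58.9 to 64.7) of phagocytes had an Mrc1 UMI and 22.1% and 24.5% a Ccr2 UMI, the receptor of inflammatory monocytes, against 1.57% and 3.74%, and 6.69% and 10.3% of T cells, some of which express Ccr2. Thinning left out 45 and 55 phagocytes. Unthinned, the shares were 74.7% and 80.6%, and 37.5% and 41.4%. Cells with C1q genes at 4 UMIs or more were 65.5% and 66.4% of the gate.

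Ccl8, a chemokine of resident macrophages named here after its value was seen, was lower in the Cth-/- control library. It stood at 1267 and 656 CPM on the control diet and 747 and 492 on the cystine-free diet (-0.95, -1.02 to -0.88 on the control diet). Both Cth-/- libraries were lower. Of the 20 measured cytokine and chemokine genes 1 was at least 1.5-fold higher, against 1.24% of all genes, and 2 lower, against 0.694%. The higher was Cxcl10, an interferon-induced chemokine, at 71.4 and 108 CPM, and the lower were Ccl8 and Cxcl14. The UMIs of Cxcl14 were 176 and 117, with 83 of the first in 1 cell. Ccl2 was 2192 and 2425 CPM, Ccl7 2965 and 2896, and Il1b 946 and 1054, so the step in Ccl2 seen in the endothelial gate had a log2 difference of 0.15 here. Of 3 genes at least 2-fold higher (0.365% of all genes passed that fold) that passed the limit on free RNA, Mid1 is given above. Hist1h2ap was 63.9 and 174 CPM on the control diet and 207 and 40.9 on the cystine-free diet (1.43, 1.21 to 1.69), from 37 and 57 cells. The other 7 measured cell cycle genes were all within 1.5-fold (median of the list 0.18), among them Top2a, which untangles replicated DNA, at 41.1 and 57.4. Mmp12, macrophage elastase, was 22.1 and 53.2 CPM (1.23, 0.86 to 1.69) from 24 and 36 cells, but its difference turned to -2.41 without the cells that carried C1q genes. Slpi, an inhibitor of leukocyte proteases, was 58.7 and 7.12 CPM (-2.88, -3.65 to -2.48), with 118 of 170 Cth+/+ UMIs in 1 cell.

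In the T gate, genes of cytotoxic and effector cells were higher in the Cth-/- control library, in 7 of 8 measured members (median 1.66), against 15% of all genes. Genes of naive and resting T cells were lower in 5 of 9 (median -0.74), against 9.37%. Ccl5, a chemokine of effector cells, was 2535 and 6269 CPM on the control diet and 5583 and 2291 on the cystine-free diet (1.31, 1.21 to 1.40 on the control diet). The Cth-/- control and the Cth+/+ cystine-free libraries were the high pair. Gzmb, a granzyme that kills target cells, was 79.5 and 276, then 180.4 and 129 CPM (1.78, 1.30 to 2.30). Xcl1, a chemokine of cytotoxic cells, was 99.3 and 386, then 205 and 91.0 (1.95, 1.53 to 2.40), from 33 and 29 cells on the control diet. Summed over the list the 4 libraries stood at 3513, 8547, 7653 and 3549.9 CPM (Cth+/+ and Cth-/- control, Cth+/+ and Cth-/- cystine-free), so the Cth+/+ control library was the lowest with the Cth-/- cystine-free library close above. Gzma, another granzyme, had the highest ratio among genes that passed the limit on free RNA, 7.95 and 329 CPM, but 6 and 99 UMIs in 4 and 8 cells, and 421 and 263 on the cystine-free diet. Gzmc came from 5 and 4 cells.

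Lef1, a transcription factor of naive T cells, was 129.8 and 19.9 CPM on the control diet and 45.5 and 105 on the cystine-free diet (-2.64, -4.18 to -1.53 on the control diet), in 68 of 269 and 6 of 115 cells, against 8 of 1295 and 1 of 544 endothelial cells. Of the 4 libraries the Cth-/- control library was lowest. Dapl1 was 155 and 36.6, then 44.0 and 124 (-2.05, -3.12 to -1.19), and Tcf7, a partner of Lef1, 151 and 83.1 (-0.85, -1.55 to -0.23). Ccr7, a homing receptor, was 114 and 76.5 CPM (-0.57, -1.31 to 0.10). The share of T cells with a Cd8a UMI after thinning to 1000 UMIs was 15.8% (11.6 to 20.8) and 6.36% (2.60 to 12.7), against 0 of 1157 and 0 of 485 endothelial cells (which allows up to 0.259% and 0.619%). Thinning left out 9 and 5 T cells, and unthinned shares were 27.9% and 14.8%. Cells with any Cd8a or Cd8b1 UMI were 111 of 269 (41.3%) and 24 of 115 (20.9%). Without those cells the effector list still had 7 of 7 members higher (median 1.37), and the naive list had 2 of 6 lower (median -0.53). Trdc, the constant part of the delta receptor chain, was seen in 7.31% (4.46 to 11.2) and 10.9% (5.77 to 18.3) of thinned cells, and in 0 of the same endothelial cells. Unthinned, those shares were 10.4% and 17.4%. Natural killer (NK) markers summed to 212 and 874 CPM and B cell markers to 232 and 63.2.

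Of 8 genes of the feedback on NF-kB, the main transcription factor of inflammation, 6 were higher in T cells of the Cth-/- control library, against 15% of all genes, and 0 lower (median 0.84). They were 6 of 7 in cells of exactly 1 gate (median 1.18), 6 of 8 without doublets (0.76) and 3 of 6 without Cd8 cells (0.57). Nfkbia, its inhibitor, was 368 and 888 CPM on the control diet and 622 and 573 on the cystine-free diet (1.27, 1.02 to 1.52). The Cth+/+ control library was the lowest of the 4. Nr4a2, a receptor induced by T cell receptor signals, was 119 and 326 CPM (1.44, 1.02 to 1.88), within an immediate early list of which 9 of 19 were higher (median 0.56). In the 235 and 104 cells of exactly 1 gate, where 270 of 1378 genes were higher, 14 of 17 were (median 1.11). Without doublets that list had 6 higher and 4 lower (median 0.28), and without the Cd8 cells 5 higher and 3 lower (0.10). Areg, a growth factor of regulatory and innate-like T cells, was 23.8 and 329 CPM, then 141 and 239 (3.73, 3.05 to 4.60 on the control diet), from 8 and 16 cells. It is also a gene of hormone-sensing milk duct cells, and stood at 1084 CPM in Cth-/- epithelial cells. Of 3 such duct genes measured in the T gate 2 were higher, 1 of which was Areg itself (median 3.67, and 1.04 in cells of exactly 1 gate). T cells that also passed the epithelial gate were 0 of 269 and 1 of 115. The part of epithelial RNA in Areg was not tested. Ikzf2, a factor of regulatory cells, was 136 and 299 CPM (1.13, 0.71 to 1.55), and Cd163l1, a scavenger receptor of gamma delta T cells, 41.1 and 136 (1.71, 1.02 to 2.45). Of the 7 measured genes of regulatory and helper cells 6 were higher and 0 lower (median 1.07). The count was 3 of 4 in cells of exactly 1 gate, and without the Cd8 cells 3 of 6 were higher and 1 lower. Klra7, a receptor of natural killer cells, was 34.4 and 146 CPM (2.05, 1.35 to 2.84) and Spry2, an inhibitor of kinase signals, 21.2 and 116 (2.40, 1.57 to 3.41). Hist1h2ap, at 106 and 462 CPM, had 53 of 80 and 86 of 139 UMIs in 1 cell of each library, and Hmgb2, a chromatin protein of cycling cells, was 374 and 751 (1.01, 0.75 to 1.27).

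Epithelial cells carried milk duct genes in both control libraries. Of 9 genes of hormone-sensing duct cells 1 was at least 1.5-fold higher and 1 lower (median -0.06), against 2.85% and 1.34% of all genes, and of 9 secretory genes 0 were higher and 1 lower (median -0.23). Prlr, the prolactin receptor, was 1933 and 1881 CPM, and 64.6% and 66.7% of thinned cells had a UMI of it, against 0.769% and 2.75% of T cells (unthinned 79.0% and 78.8%). The higher member was Areg, the growth factor by which estrogen drives duct growth, at 483 and 1084 CPM on the control diet and 335 and 183 on the cystine-free diet (1.16, 1.07 to 1.26 on the control diet). It was found in 48.7% and 60.1% of epithelial cells, against 1.54% and 3.49% of endothelial cells, and the Cth-/- control library was the highest of the 4. The lower members were Prom1, a protein of membrane protrusions, at 163 and 103 (-0.66, -0.89 to -0.45), and Ltf, the milk protein lactoferrin, at 253 and 165 CPM (-0.61, -0.79 to -0.45). Esr1, the estrogen receptor, was 47.6 and 69.6 (0.54, 0.23 to 0.88), and Pgr, the progesterone receptor and an estrogen target, 193 and 170.3 (-0.18, -0.36 to 0.00).

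Cell cycle genes were higher in epithelial cells of the Cth-/- control library, in 5 of 6 measured members (median 0.89), against 2.85% of all genes, and in 5 of 7 among cells of exactly 1 gate (median 1.09). Stmn1, which destabilises microtubules, was 28.2 and 75.6 CPM on the control diet and 93.6 and 22.3 on the cystine-free diet (1.39, 1.05 to 1.81). The Cth+/+ cystine-free library was the highest and the Cth-/- cystine-free library the lowest. Hist1h2ap was 11.9 and 95.1, then 10.3 and 14.5 CPM (2.90, 2.49 to 3.55), and H2afz, a histone variant, 268 and 418 (0.64, 0.51 to 0.78). Ctns, which carries cystine out of lysosomes, was 23.4 and 67.4 CPM, then 12.1 and 12.3 (1.48, 1.12 to 1.95). It was detected in 44 of 195 and 69 of 203 cells, 1 of which held 42 of 180 Cth-/- UMIs, and without the top cell of each library the difference was 1.21. The Cth-/- control library was the highest of the 4. Upk3a, a uroplakin of urinary epithelium, was 23.1 and 252, then 154 and 26.8 CPM (3.39, 3.09 to 3.83), in 9.23% and 19.2% of cells, against 0.0772% and 0.551% of endothelial cells. Dmbt1, a secreted scavenger receptor of mucosa, was 418 and 80.9, then 175 and 77.6 (-2.36, -2.59 to -2.16), lower in both Cth-/- libraries. Gatb, which acts in mitochondrial translation, was 168 and 71.5, then 38.1 and 74.8 CPM (-1.22, -1.48 to -0.99). Fgb, a fibrinogen chain, was 72.7 and 171 (1.23, 1.00 to 1.48), and Pcp4, which binds calmodulin, 163 and 363 (1.15, 0.99 to 1.31). Wfdc12, a protease inhibitor, had 174 of 177 Cth+/+ UMIs in 1 cell, and its difference of -1.58 turned to 0.99 without the top cell of each library. Sprr2a3, of the cornified envelope, had 98 of 154 Cth+/+ UMIs in 1 cell, with differences of -3.18 and, without the top cells, -2.65.

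MHC class II genes were higher in epithelial cells too, in 4 of 4 measured members (median 1.45) and in 4 of 4 among cells of exactly 1 gate (median 1.64). Over all epithelial genes 2.85% were at least 1.5-fold higher, and in cells of exactly 1 gate 93 of 2513. Cd74, the invariant chain, was 113 and 369 CPM on the control diet and 238 and 166 on the cystine-free diet (1.70, 1.52 to 1.89 on the control diet). Of the 4 values the Cth-/- control one was highest. Ccl2 was 31.3 and 110.4 (1.79, 1.48 to 2.18) and Ccl7 52.0 and 131 CPM (1.32, 1.06 to 1.62). These genes are far higher in phagocytes, where Cd74 was 13095 and 11676 CPM, and phagocytes were the larger share of the Cth-/- control library. Progenitor markers also stood higher in epithelial cells (6 of 9, summed 1879.5 and 2970.3 CPM). The part of RNA from other cells in these differences was not tested. Capillary genes went the other way, with Fabp4 at 689 and 182 CPM and Cd36 at 84.9 and 22.1. In cells of exactly 1 gate Fabp4 was 194 and 115.

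**Figure D4:**
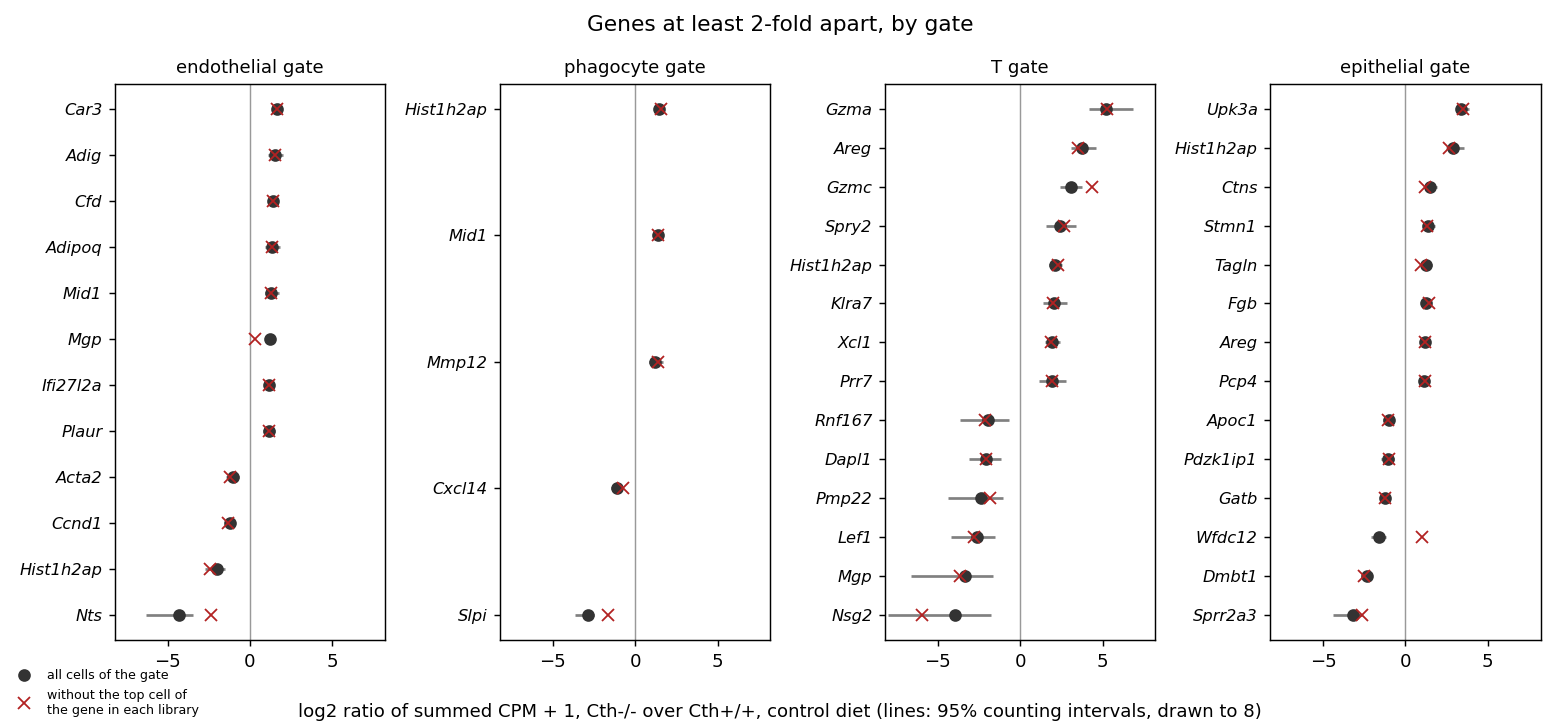
Log2 ratio of CPM plus 1, Cth-/- over Cth+/+ on the control diet, for genes at least 2-fold apart that passed the limit on free RNA, at most 8 each way, in 4 gates. Points are all cells of the gate, lines 95% counting intervals drawn to 8, and crosses the value without the cell with the most UMIs of the gene in each library. Crosses for Mgp (0.30), Nts (-2.34) and Wfdc12 (0.99) lie away from their points (1.24, -4.30 and -1.58).

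In the Rgs5 Notch3 gate 75.7% (Cth+/+) and 71.2% (Cth-/-) of cells also passed the endothelial gate, and 3.97% and 10.9% the epithelial gate. The part of these cells in the differences that follow was not tested. Capillary genes were lower in 9 of 12 (median -0.71), against 11.3% of all genes, arterial genes in 4 of 5, and smooth muscle genes in 7 of 7 (median -0.87). Hormone-sensing duct genes were higher in 7 of 8 (median 0.95) and secretory genes in 6 of 7 (median 1.33), against 7.33%. Cells that also passed the epithelial gate were 17 of 428 and 17 of 156. Prlr, a duct gene, was 548 and 1044 CPM, and Areg 152 and 872. Pericyte genes were lower in 2 of 10 (median -0.34), and Pdgfrb, the growth factor receptor of pericytes, was 209.5 and 169 CPM. In the 78 and 26 cells that passed this gate alone, Pdgfrb was 533 and 917 CPM (0.78) and Acta2 1256 and 1007 (-0.32). Among genes at least 2-fold lower were Aqp1, a water channel (1368 and 550.2 CPM), and Rflnb, which binds filamin (712 and 286). Rflnb had a difference of 1.25 in the cells of that gate alone.

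Genes of cysteine supply and of the stress responses to its loss had 0 to 2 members of a list at least 1.5-fold higher in endothelial cells, phagocytes, T cells and epithelial cells, and up to 4 in the Rgs5 Notch3 gate. Over all measured genes the shares higher were 4.12%, 1.24%, 15%, 2.85% and 7.33% in the same order. Of the methionine and cysteine metabolism list, 0 of 4 measured members were past 1.5-fold in phagocytes (median 0.01), 1 of 3 in T cells (0.19) and 0 of 9 in epithelial cells (median -0.06). In endothelial cells the measured members were Mat2a, which makes S-adenosylmethionine, at 356 and 532 CPM (0.58, 0.46 to 0.70), and Cdo1, which oxidises cysteine and is abundant in fat cells, at 30.03 and 66.3 (1.12, 0.76 to 1.53). Mat2a was 259 and 607 on the cystine-free diet, again higher in Cth-/-. Gclc, which makes the precursor of glutathione, was 139 and 124 CPM in epithelial cells (-0.17, -0.38 to 0.04) and 51.8 and 49.6 in phagocytes (-0.06, -0.37 to 0.25). Of the targets of Atf4, the factor that answers amino acid shortage, 1 of 10, Cebpb, was past 1.5-fold in endothelial cells (median 0.23), 0 of 9 in phagocytes (0.14), 1 of 6, Atf4 itself, in T cells (0.47) and 0 of 9 in epithelial cells (-0.09). Of the targets of Nrf2, the factor that answers oxidants, 2 of 8, 0 of 9, 0 of 5 and 0 of 12 were higher, and the endothelial pair was Hmox1, heme oxygenase (56.9 and 97.9 CPM, 0.77, 0.48 to 1.08), and Me1, malic enzyme (63.4 and 103, 0.70, 0.42 to 0.99). In the T cells of exactly 1 gate 4 of 5 Atf4 targets (median 0.70) and 3 of 5 Nrf2 targets (0.60) were higher, and without doublets 3 of 6 and 0 of 5. Over all genes 270 of 1378 were higher in the T cells of exactly 1 gate and 237 of 1614 without doublets. Glutathione enzymes had medians of 0.02, 0.05, 0.15, 0.03 and 0.07 in endothelial cells, phagocytes, T cells, the Rgs5 Notch3 gate and epithelial cells.

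In the Rgs5 Notch3 gate 4 of 6 measured genes of methionine and cysteine metabolism were higher (median 0.74), against 7.33% of all genes there. They were Cdo1 (67.0 and 114 CPM, 0.76, 0.42 to 1.12), Gclc (54.8 and 90.5, 0.72, 0.33 to 1.12), Mpst, which makes hydrogen sulfide, and Tst, a related sulfur transferase. Of the Nrf2 targets 4 of 12 were higher (median 0.26): Gclc, Me1, Gsr, which reduces glutathione, and G6pdx, which supplies NADPH, at 34.8 and 74.5 CPM (1.08, 0.63 to 1.56). Of the Atf4 targets 1 of 12 was higher. Glutathione enzymes summed to 4485 and 8837 CPM (0.98, 0.94 to 1.02), with 3 of 12 higher and 2 lower. The member most apart was Gpx3, a secreted glutathione peroxidase, at 2169 and 6494 CPM (1.58, 1.53 to 1.64). In the epithelial gate, which 17 of 428 and 17 of 156 of these cells also passed, Gpx3 was 6211 and 7621 CPM, and in cells of the Rgs5 Notch3 gate alone 426 and 447 (0.07). The part of epithelial cells in the other values was not tested.

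Genes of cholesterol synthesis summed to 341 and 312 CPM in endothelial cells (log2 difference -0.13, -0.28 to 0.02), 473 and 404 in phagocytes (-0.23, -0.33 to -0.12), 278 and 293 in T cells (0.07, -0.30 to 0.44) and 547 and 492 in epithelial cells (-0.15, -0.26 to -0.05), and to 644 and 392 in the progenitor gate (-0.72, -0.76 to -0.67). The Rgs5 Notch3 gate went the other way, with 399 and 455 CPM (0.19, 0.03 to 0.35).

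Genes of energy metabolism stood at like levels in both control libraries. All 11 genes of the mitochondrial genome were within 1.5-fold in each of the 5 gates, with medians from -0.09 to 0.18, and so were the measured nuclear genes of the respiratory chain, with medians from -0.11 to 0.15. Cells were kept only with at most 10% mitochondrial UMIs, which bounds the level of the mitochondrial genome genes in both libraries. Heat shock chaperones had 2 of 11 members higher in endothelial cells, Hspa1a and Hspa1b, against 4.12% of all genes there. Hspa1a was 146 and 247 CPM on the control diet and 233 and 904 on the cystine-free diet (0.76, 0.58 to 0.95 on the control diet), highest in the Cth-/- cystine-free library. In phagocytes and epithelial cells 0 of 9 and 0 of 11 were past 1.5-fold. Endoplasmic reticulum chaperones were past 1.5-fold in 0 of 13 endothelial, 0 of 14 phagocyte, 4 of 10 T cell and 1 of 12 epithelial members. Those past it were higher, against 15% of all genes in T cells and 2.85% in epithelial cells. Of the fatty acid synthesis genes measured in endothelial cells, 2 of 7 were higher, Me1 and Fasn, the fatty acid synthase, at 108 and 207 CPM on the control diet and 61.7 and 139.97 on the cystine-free diet (0.94, 0.73 to 1.15). The adipocyte markers above moved with them, and their part in this difference was not tested.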

How the data were processed

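Single-cell 3' RNA libraries of stromal vascular cells, 1 per group, were deposited by the authors as UMI count matrices made with Cell Ranger 3.0.0, per the file headers, on mm10, per the submitters' processing notes. Nothing had been normalized. Cells with at least 500 UMIs, 300 genes and at most 10% mitochondrial UMIs were kept: 6425 of 7175 (Cth+/+) and 5812 of 6353 (Cth-/-) on the control diet. A cell could pass more than 1 gate. UMIs were summed per gate and scaled to CPM, and ratios were taken as log2 with 1 CPM added. With 1 library per group no test was run. Intervals are exact (binomial for ratios, computed without the added CPM, Clopper-Pearson for shares, Poisson for CPM; the limit given for a share of 0 is 3 cells of the total) and cover counting error only. The interval of a difference of shares combines the widths of both shares in quadrature. Genes were named by rule: at least 2-fold apart, 50 CPM and 30 UMIs in the higher library, at most 8 each way, and not below 1 part in 5 of the level in another of the 6 gates (the limit on free RNA), with mitochondrial, ribosomal, haemoglobin, immunoglobulin and predicted genes left out. The members and the 46 gene lists (582 genes) were chosen with earlier results of these data known, so a pattern of a list is a description. Metal response cores were searched in RefSeq promoters of GRCm38. Scripts were tested on simulated data. Python 3.11.15, numpy 2.4.6, scipy 1.17.1, pandas 2.3.3 and Scrublet (in scanpy 1.11.5) were used. On all barcodes Scrublet marked too few cells to be of use, so it was run on kept cells, where it marked 1.56% and 2.39% of the control libraries. These cells stay in the values given unless their removal is stated. Some items of the T gate are not reported here.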

Additional observations from a re-analysis of the deposited data

Results flagged for a closer look

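The following values had the opposite sign on the 2 diets when Cth-/- was set against Cth+/+. Each diet and genotype was 1 library, so the difference between the diets was not tested. The share of endothelial cells differed by -10.8 percentage points on the control diet and by 5.16 on the cystine-free diet. The share of T cells differed by -2.21 and 2.71 percentage points. All values that follow are log2 ratios, first on the control and then on the cystine-free diet.

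In endothelial cells Mgp stood at 1.24 and -2.13, and Nts at -4.30 and 0.84. Without the cell with the most UMIs in each library the control diet values were 0.30 and -2.34. In phagocytes Hist1h2ap stood at 1.43 and -2.31, Mid1 at 1.39 and -0.93, and Slpi at -2.88 and 1.30. In T cells Gzma stood at 5.21 and -0.68, Gzmc at 3.05 and -1.05, and Xcl1 at 1.95 and -1.16. Hist1h2ap in T cells had 2.11 and -1.36, Klra7 2.05 and -1.17, and Prr7, an adaptor of T cell signalling, 1.92 and -1.11. The naive cell genes Lef1 and Dapl1 had -2.64 and 1.19, and -2.05 and 1.47. In epithelial cells Upk3a stood at 3.39 and -2.48, Areg at 1.16 and -0.87, and Stmn1 at 1.39 and -2.02. Pcp4 had 1.15 and -2.85 there, Tagln, a smooth muscle and basal cell gene, 1.28 and -2.84, but -1.99 on the control diet without Krt5 Krt14 cells, and Gatb -1.22 and 0.96.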

How the results depend on the processing

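Each group was 1 library. No paired analysis was possible because no group had 2 samples, and there was no replicate to leave out. Of 1601 values of 159 list medians under the alternatives, 1288 stayed within the spread of the main value, 308 moved and 5 changed sign. Of 768 values of 76 named gene results, 644 stayed, 116 moved and 8 changed sign. A change of sign was counted only where the main value was at least 1.5-fold apart. Sign changes of smaller main values stand among those that stayed or moved.

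Differences of shares, Cth-/- minus Cth+/+ in percentage points, kept their sign in every gate. The epithelial difference stayed within its interval, and the others moved out of theirs under the settings that follow. With cells of exactly 1 gate the endothelial difference was -7.44 and the Rgs5 Notch3 difference -0.767. With gate thresholds doubled the differences were -8.60 (endothelial), 4.64 (phagocyte), -1.14 (T) and -2.85 (Rgs5 Notch3). With cells thinned to 1000 UMIs they were -8.28, 3.80, -1.08 and -1.79.

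Genes at least 1.5-fold apart numbered 173 in endothelial cells, 53 in phagocytes, 591 in the Rgs5 Notch3 gate and 106 in epithelial cells. Measured from 20 CPM, where more genes enter, they numbered 461, 164, 1159 and 380. In cells of exactly 1 gate (78 and 26 cells) the Rgs5 Notch3 count was 122, and by a mean over cells the epithelial count was 230. In T cells 261 genes were higher and 163 lower. Measured from 20 CPM the split was 261 and 263, and without doublets 237 and 227.

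These signs changed from main values at least 1.5-fold apart, and the cause was not tested. Cxcl14 in phagocytes was 0.37 with thresholds doubled. Mmp12 was -2.41 without cells that carried C1q genes. The MHC class II median of T cells was -0.10 without Cd8 cells. In the Rgs5 Notch3 gate the basal and keratinocyte median was -3.06 in cells of exactly 1 gate and -0.33 from 20 CPM. In cells of exactly 1 gate the basement membrane median there was 0.0039, Ctns -4.02, Mt2 -0.35, Rflnb 1.25 and Tmem252 5.52. Without Krt5 Krt14 cells the fatty acid uptake median of epithelial cells was 0.21 and Tagln -1.99. Wfdc12 was 0.99 without the cell with the most UMIs in each library, an alternative chosen after the data were seen. Depth limits the T gate most, with 754909 and 300824 UMIs.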
